A study of Homo sapiens with 9 samples.

Results

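The genes described here encode the subunits of the respiratory chain and of the ATP synthase that are made from nuclear DNA. They were chosen by symbol from the array's annotation (NDUFA, NDUFB, NDUFC, NDUFS, NDUFV, SDHA to SDHD, UQCR, COX4 to COX8, ATP5F1, ATP5M and ATP5P), and 76 of the 19775 genes with a probe set of their own were found. Complex I holds 33 of them, complex II 3, complex III 6, complex IV 17 and complex V, the ATP synthase, 17. A further 5 symbols fitted the spelling but were left out as 2 pseudogenes and 3 noncoding RNAs. NDUFS8, NDUFC2, NDUFS5, NDUFA4, NDUFA4L2, SDHB, UQCRFS1, UQCRH and UQCRHL, which belong to the same complexes or resemble their subunits, were not analysed here.

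Expression was measured in H69, an established human small cell lung cancer line, after 24 h in complete medium with 1 of 3 treatments. Control cells received the vehicle DMSO per the protocol (their treatment label reads none), a further group received PIK75 at 100 nM, and the last received TGX221 at a labelled dose of 1 mM, with 3 arrays in each group. PIK75 and TGX221 both inhibit phosphoinositide 3-kinases, lipid kinases that relay growth factor signals. PIK75 prefers the p110α isoform and TGX221 the p110β isoform, and the study's title concerns the p110α isoform in this cancer. Because the doses differ and the labelled unit of TGX221 has no independent check here, the compounds are set side by side without a ranking of their potency. No label says that the arrays of a group came from separate cultures, so the spread behind each p-value may be that of repeated handling only.

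The electron transport chain sits in the inner mitochondrial membrane. Complexes I and II pass electrons from NADH and succinate to coenzyme Q, complex III passes them on to cytochrome c, and complex IV passes them to oxygen. Complexes I, III and IV pump protons while doing so, and the ATP synthase lets the protons back through a turning ring of c subunits to make ATP. Each complex except complex II combines subunits from nuclear genes with a few from mitochondrial DNA, so that its assembly needs both genomes and a set of dedicated assembly factors.

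Each gene is given by its brightest probe set as a log2 signal made comparable between arrays by RMA, and the replicate arrays were close together. The median SD of the 76 genes was 0.0345 in control, 0.042 with PIK75 and 0.0389 with TGX221 (n = 3 each), below the 0.0638, 0.0784 and 0.0627 of all genes. The neuroendocrine markers of small cell lung cancer were present, with control means of 9.18 to 13.22 for the 11 measured, while the 5 leukocyte markers lay between 5.97 and 7.10 and the 6 fibroblast markers between 6.26 and 9.30. The PIK75 arrays differed from control in several technical readings as well. The interquartile range of gene signals was 2.48 to 2.57 against 2.78 to 2.83, the hybridization spikes (bacterial transcripts added after labelling) read 0.352 higher, and the signal of actin at its 3' end over its 5' end was 0.388 higher, with 1.131 on PIK75 replicate 5. The other scalings given below bear only on the level and range of the signals. They cannot test the 3' to 5' reading of actin, and its part in the differences below was not tested.

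With PIK75, 13 of 18 genes for the membrane arm of complex I fell, as did both measured core genes of complex III, all 3 c-ring genes and 3 of 4 peripheral stalk genes of the ATP synthase. Complex IV was divided on the deposited scale. Differences between these groups of genes were not tested. Of the 76 genes, 33 fell, 11 rose and 32 did not pass (limma, adjusted p under 0.05), that is 43.4% lower and 14.5% higher. Over all genes tested, 60.4% were called, 25.2% lower and 35.2% higher. The 3 PIK75 arrays lay below the 3 control arrays in 35 of the 76 genes and above them in 18, beside 26.4% and 38.3% of all genes (64.7% in either direction). The median log2 difference was -0.03 over the 76 genes and 0.09 over all genes. Signals of the subunit genes are high, and bright genes fell more often in general, a comparison added after seeing the data: among the 3487 genes with a mean log2 signal of at least 10, 48.6% were lower and 23.3% higher, beside 47.1% and 11.8% of the 68 subunit genes in that range. At that cutoff the share of falls was near the background and the share of rises was below it. Among the 602 genes with a mean of at least 12, the shares were 36.7% lower and 24.3% higher, beside 44.7% and 10.6% of 47 subunit genes. There the share of falls was above the background and the share of rises again below it. Whether these shares differ was not tested.

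**Figure D1:**
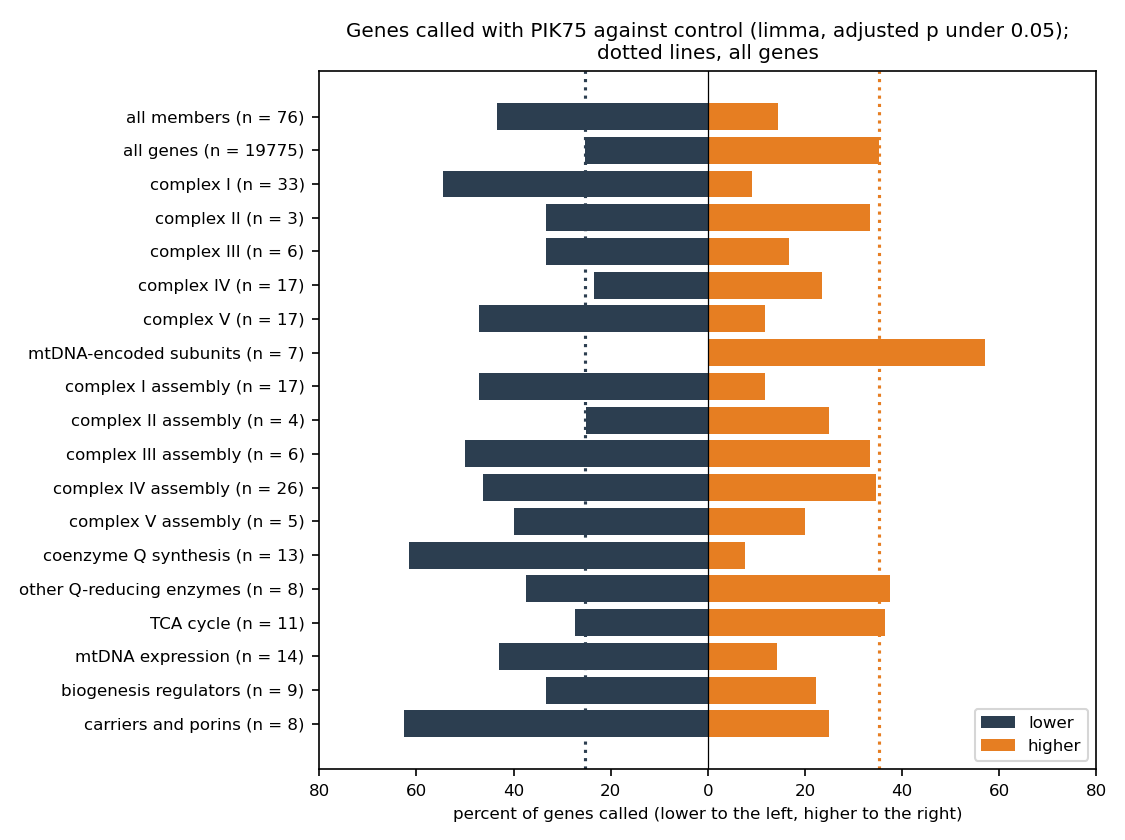
Percent of genes called lower (left) and higher (right) with PIK75 against control by limma at an adjusted p under 0.05, for the 76 subunit genes, all 19775 genes, the 5 complexes and lists of related mitochondrial genes, with the number of genes in each; dotted lines mark all genes (25.2% lower and 35.2% higher). Complexes I and V had the largest share of lower genes among the complexes, 54.5% and 47.1%, and none of the 7 subunits encoded by mitochondrial DNA was called lower; centred on the hybridization spikes, 67 of the 76 subunit genes and 3 of those 7 are called lower.

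The balance of falls and rises depended on how the arrays were scaled. By array medians 33 genes were called lower and 12 higher, by cyclic loess 21 lower and 22 higher, by poly-A spikes 30 lower and 4 higher, and by hybridization spikes 67 lower and 0 higher. Of the 33 falls as deposited, 21 were still called lower under cyclic loess. Centring on either kind of spikes makes every PIK75 difference more negative, so the falls kept there (30 and 33) are no check of them. Of the 11 rises, 11 held under cyclic loess, 4 under the poly-A spikes and 0 under the hybridization spikes, where 2 were called lower. A rise below 0.352 turns sign when the arrays are centred on the hybridization spikes, since every PIK75 difference then drops by that amount. Values below are on the deposited scale, and only the falls of UQCRC2, NDUFB8 and NDUFB2 reached 1.5-fold.

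The median of complex I was -0.14, of complex II 0.0004, of complex III -0.04, of complex IV 0.04 and of complex V -0.12 on the log2 scale. Complexes I and V lay below 0 and below the median of all genes in each of the 5 scalings. However, the 3487 genes with a mean signal of at least 10 had a median of -0.13 on the deposited scale, close to both. The 602 genes with a mean of at least 12 had a median of -0.04, above both, beside -0.05 for the 47 subunit genes in that range. Complexes II and III changed sign between scalings and complex IV was below 0 under the poly-A and the hybridization spikes. Without control replicate 5 the median of complex V was -0.07.

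**Figure D2:**
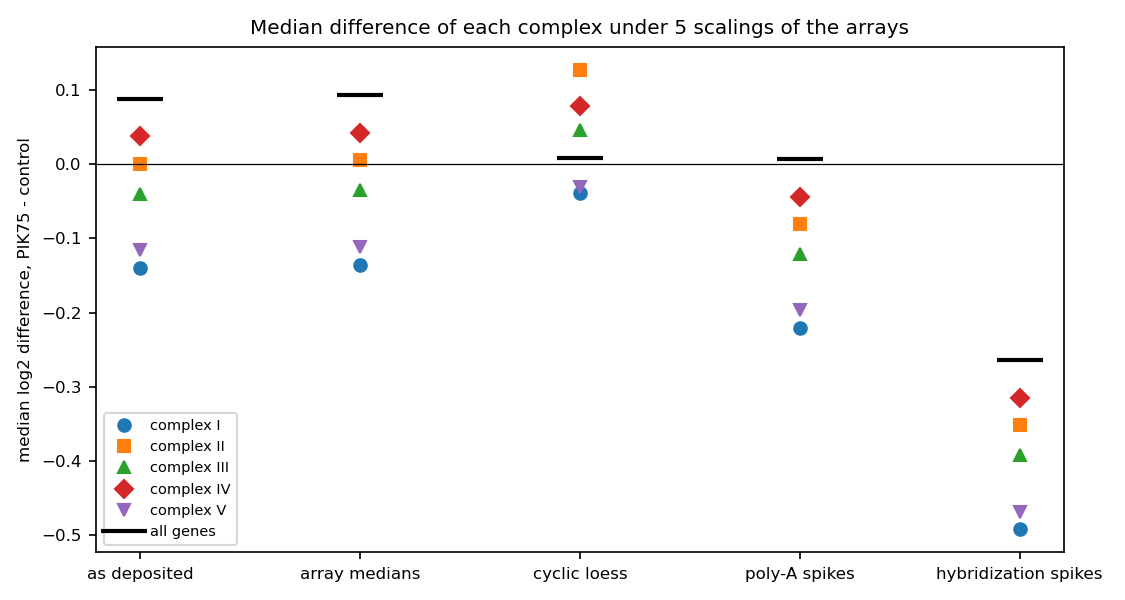
Median log2 difference between PIK75 and control for the genes of each complex (coloured symbols) and for all genes (black bars) with the arrays as deposited, centred on array medians, after cyclic loess, and centred on the poly-A or the hybridization spikes. Complexes I and V are lowest in each scaling, while complexes II, III and IV lie below 0 under both kinds of spikes and above it after cyclic loess.

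Short stretches around the transcription start are shown for 7 of the genes, the largest called fall of complexes I, III, IV and V with an entry, and 3 genes that hold several of the NRF1, ETS and YY1 motifs and that fell (ATP5PF), rose (ATP5ME) or did not pass (COX5B). ATP5PF holds all 3; COX6A1, which rose, holds as many as ATP5ME, and SDHD, NDUFA6 and NDUFS7, which did not pass, as many of these 3 as COX5B. NRF1, the ETS factor GABP and YY1 are known regulators of nuclear genes for respiratory subunits. The sequences are from RefSeq on GRCh38.p14 and run 5' to 3' on the gene's strand from 250 bases before to 50 bases after the start. For ATP5MC2 and ATP5PF the start used lies inside the annotated gene, whose 5' end is at 53681423 and 25735653. Of the 76 genes, 65 had an entry. Capitals mark matches on either strand to NRF1 (GCGCATGC), ETS (CCGGAAG), YY1 (AAGATGGC), SP1 (GGGCGG) or the hypoxia response element (ACGTGC).
NDUFB8, chr10:100529874-100530173, minus strand: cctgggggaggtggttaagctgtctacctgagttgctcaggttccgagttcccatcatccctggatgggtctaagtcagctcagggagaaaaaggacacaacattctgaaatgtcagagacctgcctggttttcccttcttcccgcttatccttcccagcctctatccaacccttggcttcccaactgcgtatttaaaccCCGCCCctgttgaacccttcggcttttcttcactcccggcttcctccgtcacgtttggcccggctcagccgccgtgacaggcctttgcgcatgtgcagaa
UQCRC2, chr16:21953111-21953410, plus strand: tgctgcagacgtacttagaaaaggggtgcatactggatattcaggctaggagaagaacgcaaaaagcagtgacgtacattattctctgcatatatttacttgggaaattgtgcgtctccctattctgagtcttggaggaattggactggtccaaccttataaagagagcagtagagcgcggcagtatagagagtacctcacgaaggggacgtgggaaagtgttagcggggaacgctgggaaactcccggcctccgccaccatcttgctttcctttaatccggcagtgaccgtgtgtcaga
COX5A, chr15:74938024-74938323, minus strand: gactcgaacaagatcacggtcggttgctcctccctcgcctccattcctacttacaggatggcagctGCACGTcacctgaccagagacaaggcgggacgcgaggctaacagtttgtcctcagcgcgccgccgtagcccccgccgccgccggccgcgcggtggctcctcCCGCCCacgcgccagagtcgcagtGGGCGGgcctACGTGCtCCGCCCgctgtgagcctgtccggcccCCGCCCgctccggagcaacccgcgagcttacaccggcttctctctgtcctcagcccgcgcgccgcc
ATP5MC2, chr12:53676034-53676333, minus strand: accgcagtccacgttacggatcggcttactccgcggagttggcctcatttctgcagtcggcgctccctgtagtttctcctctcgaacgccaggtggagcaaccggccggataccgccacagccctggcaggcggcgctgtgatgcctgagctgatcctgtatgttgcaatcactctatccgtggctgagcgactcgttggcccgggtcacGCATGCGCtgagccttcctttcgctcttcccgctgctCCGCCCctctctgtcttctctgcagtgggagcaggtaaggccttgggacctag
ATP5PF, chr21:25735005-25735304, minus strand: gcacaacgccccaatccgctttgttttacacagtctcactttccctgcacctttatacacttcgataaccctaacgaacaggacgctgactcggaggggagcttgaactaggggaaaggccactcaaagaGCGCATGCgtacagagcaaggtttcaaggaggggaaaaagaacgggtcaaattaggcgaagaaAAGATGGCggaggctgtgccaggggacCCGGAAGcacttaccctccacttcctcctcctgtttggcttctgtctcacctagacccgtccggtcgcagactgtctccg
ATP5ME, chr4:674227-674526, minus strand: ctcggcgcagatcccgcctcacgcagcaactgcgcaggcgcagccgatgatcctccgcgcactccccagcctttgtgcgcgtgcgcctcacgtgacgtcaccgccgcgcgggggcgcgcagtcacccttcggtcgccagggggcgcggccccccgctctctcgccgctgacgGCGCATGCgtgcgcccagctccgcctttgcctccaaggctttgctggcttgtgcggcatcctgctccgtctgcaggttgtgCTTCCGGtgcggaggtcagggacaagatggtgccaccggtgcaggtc
COX5B, chr2:97645812-97646111, plus strand: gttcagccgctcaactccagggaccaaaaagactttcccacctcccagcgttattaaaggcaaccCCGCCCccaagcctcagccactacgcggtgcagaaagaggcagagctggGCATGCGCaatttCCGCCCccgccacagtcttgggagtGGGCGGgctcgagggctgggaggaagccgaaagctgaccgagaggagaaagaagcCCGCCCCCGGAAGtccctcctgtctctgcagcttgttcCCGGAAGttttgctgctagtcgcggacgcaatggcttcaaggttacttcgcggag

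The NRF1 letters were found in 12 of the 65 promoters (18.5%) and in 4.26% of the 15843 promoters of protein-coding genes of the same length. YY1 matched 10 of 65 (15.4%) against 3.91%, and ETS 18 of 65 (27.7%) against 14.2%. The SP1 letters (60% against 58.5%) and those of the hypoxia response element (9.23% against 7.76%) were about as common as in other genes. Read against the PIK75 calls, the NRF1 letters were in 2 of 28 promoters of genes that fell, 2 of 9 of those that rose and 8 of 28 of those that did not pass. YY1 was in 6 of 28, 0 of 9 and 4 of 28, and ETS in 5 of 28, 4 of 9 and 9 of 28. ATP5PF, which fell, holds all 3 motifs, with NRF1 120 bases, YY1 57 bases and ETS 30 bases before the internal start used for it. COX5B, which did not pass, holds NRF1 136 bases and ETS 37 and 5 bases before its start. UQCRC2, with the largest fall, holds no exact match to the letters of the 5 motifs in this window, and NDUFB8 holds an exact SP1 match only. Shorter or near forms of the motifs were not searched. The median GC content was 57% in promoters of the genes that fell, 68% in those that rose and 62.2% in the rest, beside 62.7% in all. These matches describe letters in the windows, and no binding was measured.

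Complex I, the entry point for electrons from NADH, had 18 lower and 3 higher genes of 33 (54.5% and 9.09%). Over all genes 25.2% were lower and 35.2% higher, and of genes with a mean of at least 10, 48.6% and 23.3%. The counts of the other complexes below stand beside the same shares. Most of the called falls were in the membrane arm, the part that pumps protons. There 13 of 18 genes were lower and 1 higher, with a median of -0.20. Among these falls, the calls of NDUFA10, NDUFB6 and NDUFA13 were lost without certain single arrays, as given below. In the matrix arm, which takes electrons from NADH and hands them to coenzyme Q, 5 of 14 were lower and 2 higher, with a median of -0.02. Whether the arms differ was not tested.

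NDUFB8, an accessory subunit near the tip of the membrane arm, read 11.54, 11.54 and 11.66 on the control arrays, 10.82, 10.71 and 10.73 with PIK75, and 11.68, 11.64 and 11.70 with TGX221. The PIK75 arrays lay far below all others, while control and TGX221 overlapped. PIK75 lowered NDUFB8 by 1.77-fold (log2 -0.83, SE 0.0553, limma adjusted p = 9.95e-08). NDUFB2, a small single-span subunit of the same arm, went from 12.79, 12.77 and 12.69 in control to 12.05, 11.98 and 12.01, with 12.81, 12.74 and 12.79 under TGX221. It was 1.67-fold lower (log2 -0.74, SE 0.0508, limma adjusted p = 1.31e-07) and its PIK75 arrays were again apart from both other groups.

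Further membrane-arm falls were NDUFB1 (log2 -0.54), NDUFA3 (-0.45), NDUFB3 (-0.44), NDUFA11 (-0.35), NDUFB9 (-0.24), NDUFB11 (-0.20), NDUFC1 (-0.20) and NDUFA1 (-0.17). NDUFA3 shows how narrow the groups were, with 11.76, 11.76 and 11.79 in control and 11.37, 11.31 and 11.29 with PIK75. NDUFA10, an accessory subunit related to nucleoside kinases, read 10.25, 10.22 and 10.26 in control, 10.13, 9.89 and 10.05 with PIK75, and 10.26, 10.11 and 10.03 with TGX221. Its groups of control and PIK75 did not overlap (log2 -0.22, SE 0.0729, limma adjusted p = 0.0212), but the call was lost without control replicate 1 (adjusted p = 0.0523), control replicate 5 (0.0578) or PIK75 replicate 3 (0.0946). NDUFB6 (-0.14) and NDUFA13 (-0.13) passed narrowly: without 1 array the limma adjusted p was up to 0.0961 for NDUFB6 (PIK75 replicate 3) and up to 0.129 for NDUFA13 (control replicate 1). NDUFB6 lost its call without any 1 of the control arrays or PIK75 replicates 3 or 5, and NDUFA13 without any 1 of the control or PIK75 arrays or TGX221 replicate 5.

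NDUFB10, a disulfide-rich subunit, was the membrane-arm gene that rose: it read 12.38, 12.29 and 12.36 in control, 12.69, 12.61 and 12.62 with PIK75, and 12.45, 12.37 and 12.45 with TGX221. PIK75 lay above both (log2 0.29, SE 0.0519, limma adjusted p = 0.000427), though not when centred on the hybridization spikes. NDUFB4 (-0.05), NDUFB7 (-0.03), NDUFA8 (0.03) and NDUFB5 (0.03) did not pass. NDUFAB1, the mitochondrial acyl carrier protein that also serves fatty acid synthesis, had a value of 0.08 and did not pass.

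In the matrix arm the largest fall was in NDUFS1, the core subunit with several of the iron-sulfur clusters, which read 9.94, 9.97 and 10.19 in control, 9.63, 9.38 and 9.43 with PIK75, and 9.96, 9.96 and 9.85 with TGX221. All PIK75 arrays were below all control arrays (1.47-fold lower, log2 -0.56, SE 0.0807, limma adjusted p = 9.14e-05). NDUFA5 (-0.39), NDUFS4 (-0.36), NDUFV2 (-0.23), another iron-sulfur subunit, and NDUFA12 (-0.22) also fell.

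NDUFV1, which binds NADH and the flavin that takes its electrons, rose: it read 12.09, 12.14 and 12.05 in control, 12.55, 12.48 and 12.42 with PIK75, and 12.21, 12 and 12.21 with TGX221. PIK75 lay above both other groups (1.31-fold higher, log2 0.39, SE 0.0663, limma adjusted p = 0.000318), and centred on the hybridization spikes the difference was 0.04 and did not pass. NDUFS3, a core subunit next to the quinone site, also rose (0.24, limma adjusted p = 0.00467, not when centred on the hybridization spikes). NDUFV1 and NDUFV2, partners in the NADH-oxidizing module, thus had called differences of opposite sign on the deposited scale. NDUFS6, NDUFA2, NDUFV3, NDUFA9, NDUFA7, NDUFA6 and NDUFS7 did not pass, with values from -0.09 to 0.06.

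**Figure D3:**
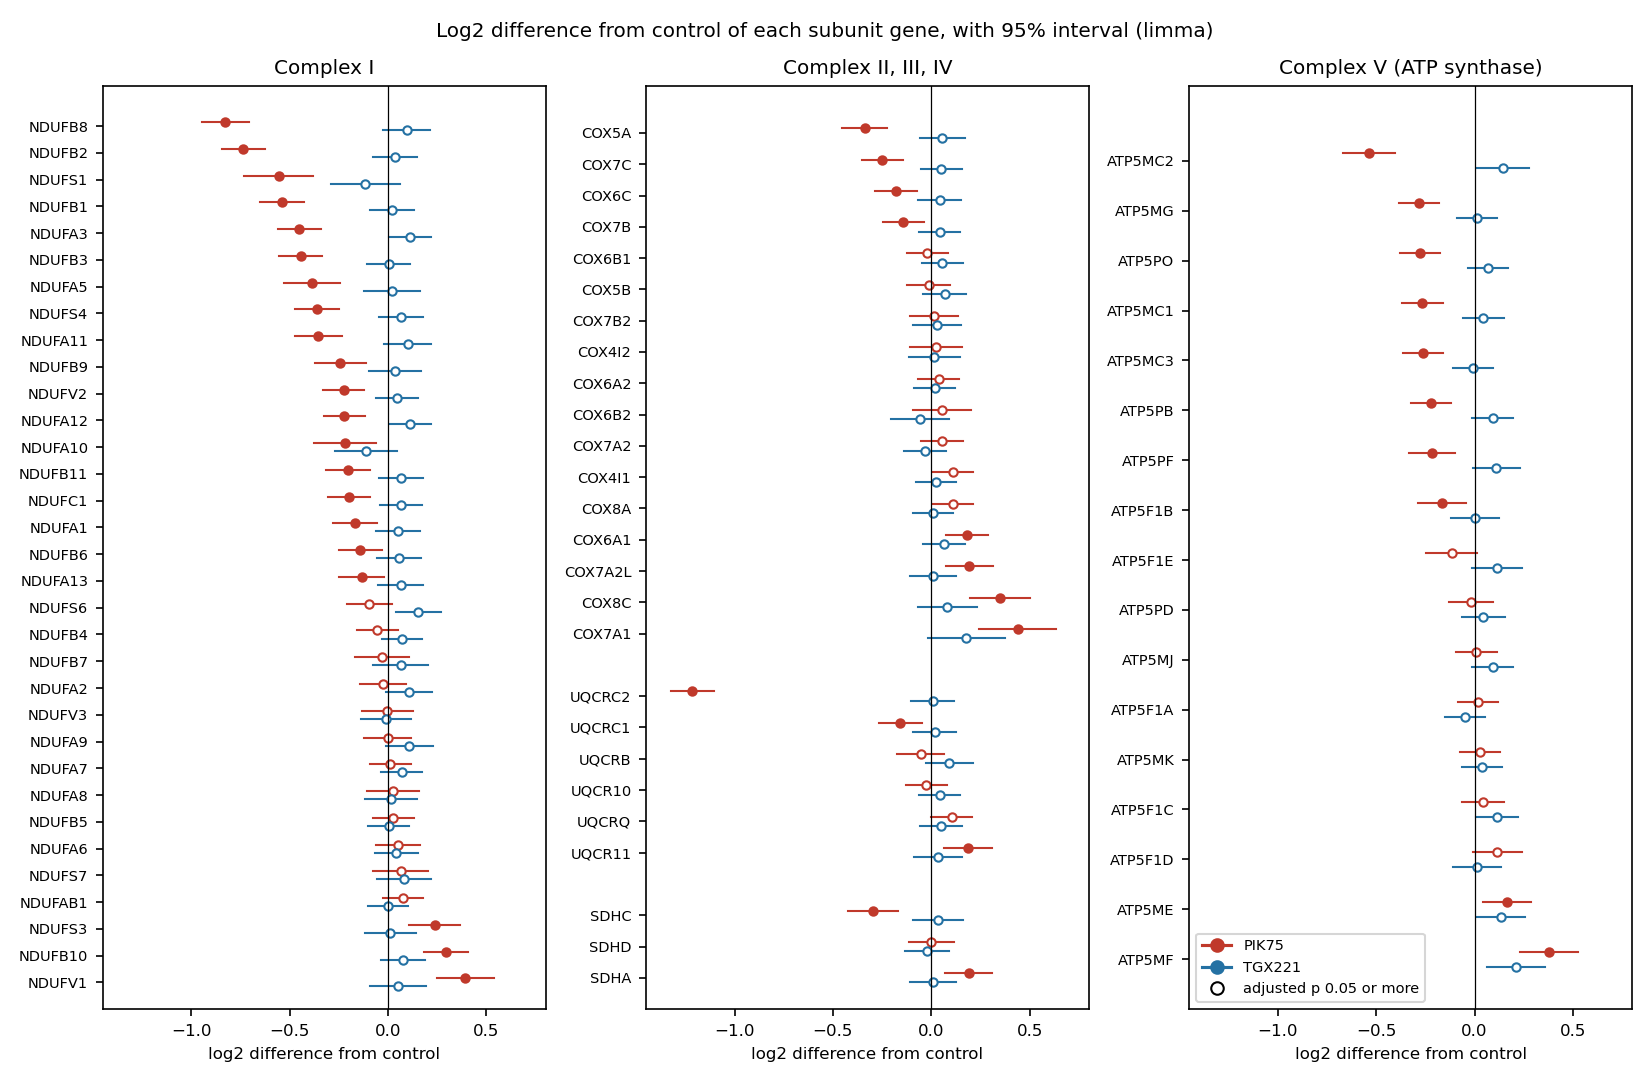
Log2 difference from control with its 95% interval (limma, n = 3 arrays per group) for each subunit gene, PIK75 in red and TGX221 in blue, with filled points at an adjusted p under 0.05 and complexes II, III and IV grouped from the bottom of the middle panel. PIK75 points are filled for 44 genes and run from -1.21 (UQCRC2) to 0.44 (COX7A1), and no TGX221 point is filled; centred on the hybridization spikes, none of the PIK75 rises passes.

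Complex II, succinate dehydrogenase, which also works in the citric acid cycle, had 1 fall and 1 rise among 3 genes. SDHC, a membrane anchor that helps bind coenzyme Q, read 10.76, 10.77 and 10.83 in control, 10.46, 10.44 and 10.57 with PIK75, and 10.90, 10.76 and 10.80 with TGX221. It was lower on all PIK75 arrays (1.23-fold, log2 -0.30, SE 0.0579, limma adjusted p = 0.000891). SDHA, the flavoprotein that oxidizes succinate, read 11.19, 11.21 and 11.15 in control, 11.38, 11.36 and 11.38 with PIK75, and 11.24, 11.10 and 11.24 with TGX221. Its PIK75 arrays were all higher (log2 0.19, SE 0.0539, limma adjusted p = 0.00971), with a value of -0.16 on the scale of the hybridization spikes. SDHD, the other anchor, had a value of 0.0004 and overlapping groups.

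In complex III, which passes electrons from coenzyme Q to cytochrome c, both core proteins fell. UQCRC2 had the largest difference of the 76 genes: it read 12.34, 12.27 and 12.36 in control, 11.12, 11.09 and 11.11 with PIK75, and 12.37, 12.32 and 12.29 with TGX221. PIK75 lay far below both other groups, which overlapped. UQCRC2 was 2.32-fold lower (SE 0.0498 on the log2 scale, limma adjusted p = 2.66e-09), and only 1.91% of all genes had a log2 difference as low or lower. UQCRC1, its partner, moved much less, from 10.49, 10.41 and 10.44 in control to 10.33, 10.24 and 10.30, with 10.50, 10.44 and 10.46 under TGX221. The groups did not overlap (log2 -0.16, SE 0.0502, limma adjusted p = 0.0165), but the call was lost without control replicate 1 (adjusted p = 0.0633) or PIK75 replicate 3 (0.0581).

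Of the 4 small subunits, UQCR11 rose: it read 12.68, 12.66 and 12.75 in control, 12.96, 12.86 and 12.81 with PIK75, and 12.74, 12.76 and 12.68 with TGX221. PIK75 was above control on every array (log2 0.18, SE 0.0561, limma adjusted p = 0.0136). The call was lost without PIK75 replicate 1 (adjusted p = 0.0503), and the value was -0.17 by the hybridization spikes. UQCRB (-0.05), which helps hold the quinone-binding region, UQCR10 (-0.03) and UQCRQ (0.10) did not pass. Cytochrome c1, the haem subunit encoded by CYC1 and outside the rule, had a value of -0.04 (limma adjusted p = 0.51).

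Complex IV, cytochrome c oxidase, had 4 falls and 4 rises among 17 genes, an even split on the deposited scale. That is 23.5% lower and 23.5% higher, beside 25.2% and 35.2% of all genes. Among the 10 subunits present in most tissues, 4 fell and 1 rose. COX5A, which binds thyroid hormone and helps tune the enzyme, read 13.14, 13.07 and 13.22 in control, 12.78, 12.82 and 12.82 with PIK75, and 13.20, 13.18 and 13.22 with TGX221. The PIK75 arrays were all lower (1.27-fold, log2 -0.34, SE 0.0521, limma adjusted p = 0.000147). COX7C read 13.74, 13.73 and 13.78 in control, 13.49, 13.48 and 13.54 with PIK75, and 13.80, 13.77 and 13.83 with TGX221, again with PIK75 apart (log2 -0.25, SE 0.0483, limma adjusted p = 0.000889). COX6C (-0.18) fell as well. COX5B (-0.01), COX8A (0.11) and COX7A2 (0.05) did not pass.

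Several complex IV subunits exist as a widely used form and a form typical of certain tissues. COX4I1 read 12.83, 12.88 and 12.85 in control, 12.97, 12.96 and 12.96 with PIK75, and 12.89, 12.84 and 12.90 with TGX221. PIK75 was higher without overlap but did not pass (log2 0.11, SE 0.0466, limma adjusted p = 0.0583). COX4I2, the form used in lung and under low oxygen, read 8.21, 8.27 and 8.12, then 8.25, 8.21 and 8.21, and 8.12, 8.29 and 8.23 in the same order of groups. These values overlapped throughout (log2 0.02, 95% interval -0.11 to 0.15).

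COX6A1, the common form, rose: it read 13.69, 13.67 and 13.77 in control, 13.91, 13.87 and 13.89 with PIK75, and 13.77, 13.77 and 13.79 with TGX221 (log2 0.18, SE 0.049, limma adjusted p = 0.00751). By the hybridization spikes its value was -0.17 (limma adjusted p = 0.045), that is a called fall. COX6A2, the heart and muscle form, read 6.63, 6.58 and 6.62, then 6.68, 6.64 and 6.62, and 6.60, 6.62 and 6.66, with overlap (log2 0.04, 95% interval -0.07 to 0.14).

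COX6B1 read 12.54, 12.51 and 12.54 in control, 12.53, 12.50 and 12.49 with PIK75, and 12.62, 12.54 and 12.59 with TGX221 (PIK75 log2 -0.02, 95% interval -0.12 to 0.08). COX6B2, the testis form, read 7.15, 7.36 and 7.31, then 7.35, 7.31 and 7.31, and 7.11, 7.32 and 7.22 (log2 0.05, 95% interval -0.09 to 0.20). Neither member of that pair passed.

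COX7B was lower on all PIK75 arrays (13.37, 13.32 and 13.41 in control, 13.23, 13.22 and 13.22 with PIK75, 13.41, 13.42 and 13.40 with TGX221). The difference was -0.14 (SE 0.0473, limma adjusted p = 0.0209) and did not pass without control replicate 1 (adjusted p = 0.0534) or control replicate 5 (0.0708). COX7B2, another testis form, read 6.42, 6.47 and 6.36, then 6.49, 6.45 and 6.34, and 6.41, 6.47 and 6.45, all within 1 range (log2 0.02, 95% interval -0.11 to 0.14).

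The COX7A genes comprise a common form (COX7A2), a heart and muscle form (COX7A1) and COX7A2L, which joins complexes III and IV into supercomplexes. COX7A1 read 7.49, 7.21 and 7.19 in control, 7.73, 7.57 and 7.90 with PIK75, and 7.49, 7.45 and 7.48 with TGX221. Control and PIK75 did not overlap although both scattered widely (1.36-fold higher, log2 0.44, SE 0.09, limma adjusted p = 0.00127). The value was 0.09 and not called by the hybridization spikes. All COX7A1 group means (7.29, 7.73 and 7.47 for control, PIK75 and TGX221) lay below 8.227, the median signal of all genes. Rises with PIK75 were called for 30.9% of genes with at least that signal, beside 35.2% of all genes. COX7A2 read 13.40, 13.38 and 13.40, then 13.47, 13.41 and 13.47, and 13.30, 13.40 and 13.38 (log2 0.05, SE 0.0493, limma adjusted p = 0.345). COX7A2L read 10.66, 10.64 and 10.62, then 10.87, 10.84 and 10.78, and 10.72, 10.65 and 10.57. It was higher with PIK75 (log2 0.19, SE 0.0541, limma adjusted p = 0.00866), and at -0.16 by the hybridization spikes. Of the 6 tissue forms, COX7A1 and COX8C rose and none fell, and neither rise passed by the hybridization spikes. COX8C, a testis form, had a control mean of 5.62 and a PIK75 mean of 5.97 (log2 0.35), a signal at the dim end of the array where background was not told apart. Of the 6 measured muscle markers, CKM (-1.07) and MB (-0.83) fell while ACTA1 (0.55) and MYH7 (0.29) rose.

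**Figure D4:**
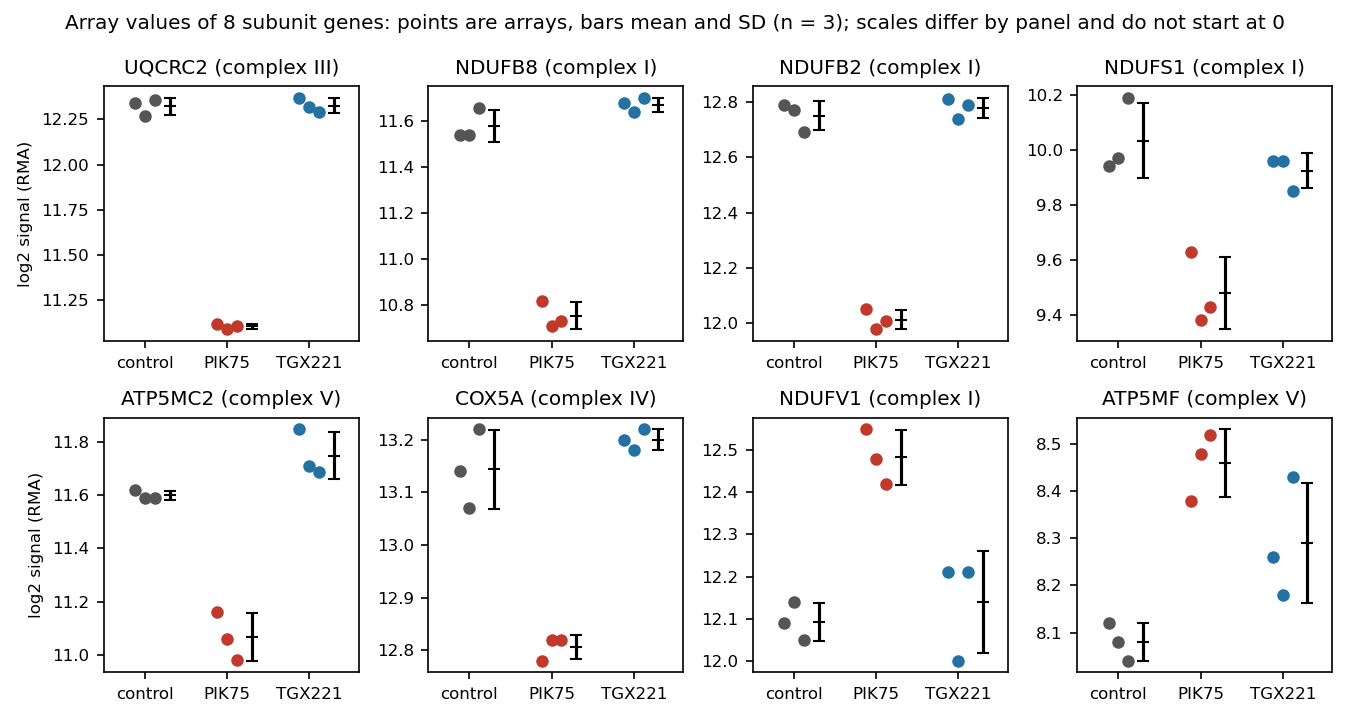
RMA log2 signal of 8 subunit genes on each of the 9 arrays (points) with group mean and SD (bars, n = 3), each panel on its own axis. In UQCRC2, NDUFB8, NDUFB2, NDUFS1, ATP5MC2 and COX5A the PIK75 arrays lie below both other groups and in NDUFV1 and ATP5MF above control, rises that did not pass when centred on the hybridization spikes.

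In complex V, the ATP synthase, 8 genes were lower and 2 higher of 17 (47.1% and 11.8%). Over all genes 25.2% were lower and 35.2% higher. Among genes with a mean of at least 10 the shares were 48.6% and 23.3%, so the share of falls was near that background. The falls were 3 genes of the c-ring, the membrane rotor, 3 of the stalk that holds the catalytic head, 1 of 5 genes of the head and 1 of 5 small membrane subunits. ATP5MC1, ATP5MC2 and ATP5MC3 encode the same mature c subunit with different import sequences, and all 3 fell. ATP5MC2 read 11.62, 11.59 and 11.59 in control, 11.16, 11.06 and 10.98 with PIK75, and 11.85, 11.71 and 11.69 with TGX221. PIK75 was below and TGX221 above control without overlap (PIK75 1.45-fold lower, log2 -0.54, SE 0.0611, limma adjusted p = 1.16e-05). ATP5MC1 read 12.01, 11.96 and 11.94, then 11.69, 11.69 and 11.72, and 12.04, 12 and 12.01 (PIK75 log2 -0.27, SE 0.0476, limma adjusted p = 0.000494). ATP5MC3 read 12.50, 12.48 and 12.48, then 12.22, 12.23 and 12.22, and 12.52, 12.47 and 12.45 (PIK75 log2 -0.26, SE 0.0465, limma adjusted p = 0.000432). All 3 c-subunit genes were called lower in each of the 5 scalings, but ATP5MC2 was at -0.09 and not called with the mean of its probe sets (limma adjusted p = 0.173).

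In the peripheral stalk, ATP5PO (log2 -0.28), the protein that confers oligomycin sensitivity, ATP5PB (-0.22) and ATP5PF (-0.22) fell, and ATP5PD (-0.02) did not pass. With the mean of its 3 probe sets ATP5PO was at -0.03 and not called (limma adjusted p = 0.563). ATP5PB had PIK75 values of 12.47, 12.47 and 12.46 below 12.71, 12.68 and 12.68 in control. In the catalytic head, ATP5F1B, the catalytic β subunit, was lower (-0.17, limma adjusted p = 0.0218), a call lost without control replicate 1 (adjusted p = 0.0606), PIK75 replicate 3 (0.0582) or PIK75 replicate 5 (0.0653). The α subunit ATP5F1A (0.02), γ ATP5F1C (0.04), δ ATP5F1D (0.12) and ε ATP5F1E (-0.12) did not pass.

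Among the small membrane subunits, ATP5MG, subunit g of the region where ATP synthases pair up, read 13.62, 13.59 and 13.60 in control, 13.33, 13.29 and 13.33 with PIK75, and 13.63, 13.58 and 13.62 with TGX221. PIK75 lay below both other groups, which overlapped (1.22-fold lower, log2 -0.28, SE 0.0466, limma adjusted p = 0.000264). ATP5MF, subunit f, read 8.12, 8.08 and 8.04, then 8.38, 8.48 and 8.52, and 8.26, 8.18 and 8.43. All arrays of both inhibitors lay above control, and the PIK75 rise passed (log2 0.38, SE 0.0682, limma adjusted p = 0.000508), with 0.03 and no call by the hybridization spikes. ATP5ME, subunit e, rose (0.17, limma adjusted p = 0.0217) but not without control replicate 1 (adjusted p = 0.0535), control replicate 3 (0.093), PIK75 replicate 1 (0.0648) or PIK75 replicate 3 (0.0524). ATP5MJ (0.01) and ATP5MK (0.03) did not pass.

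A gene can be read by several probe sets that target different parts of its transcripts, and this gave a check on some of the values. Of the 76 genes, 33 had 1 probe set of their own and 43 had several, 148 probe sets in all. Of the 72 that were not the brightest, 24 were called lower and 16 higher with PIK75 when each probe set was fitted on its own. Over all 41091 probe sets with 1 symbol, 9661 were called lower and 12393 higher. In 8 genes every probe set was called in 1 direction, lower in 5 and higher in 3, and in 3 genes probe sets were called in opposite directions.

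SDHC was lower on 6 of its 7 probe sets, from -0.30 on the brightest to -1.08 on the fifth brightest, and -0.0023 on the dimmest. A second bright probe set of UQCRC2 fell even more than the first (11.66 in control to 10.04 with PIK75, log2 -1.62), while a dim one, with 6.88 in control, had -0.02. ATP5MG was lower on all 4 of its probe sets (-0.28, -0.30, -0.31 and -1.06), and NDUFS1 on 3 of 5 (-0.56, -0.82 and -0.86).

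The 3 genes with opposite calls were NDUFB2, ATP5MC2 and NDUFA10, and in each the rise was on a dimmer probe set. NDUFB2 fell on its 2 bright probe sets (-0.74 and -0.82) and rose on one that went from 6.39 to 7.29 (log2 0.90). ATP5MC2 rose on a probe set that went from 7.82 to 8.18 (log2 0.36). NDUFA10 rose on one that went from 6.15 to 6.49 (log2 0.34), and the mean over its 5 probe sets was 0.06 and not called. With such means, NDUFB6 (0.02), NDUFC1 (-0.08) and UQCR11 (0.06) lost their calls as well. ATP5MJ, whose brightest probe set did not pass (0.01), had a second one that read 11.18, 11.13 and 11.19 in control and 12.20, 12.14 and 12.10 with PIK75, a rise of 0.98 (SE 0.0519, limma adjusted p = 3.53e-08). That is the largest rise among the 148 probe sets, and the value per gene does not include it. Dimmer probe sets were also called for other genes that did not pass, among them UQCRB (log2 -0.60), UQCR10 (-0.18) and ATP5F1C (0.61). The brightest probe sets of 7 genes, SDHC, SDHA, COX7C, COX4I1, ATP5MG, ATP5F1C and ATP5ME, carry the maker's mark for probes that may also bind other transcripts, and their values are uncertain to that extent.

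**Figure D5:**
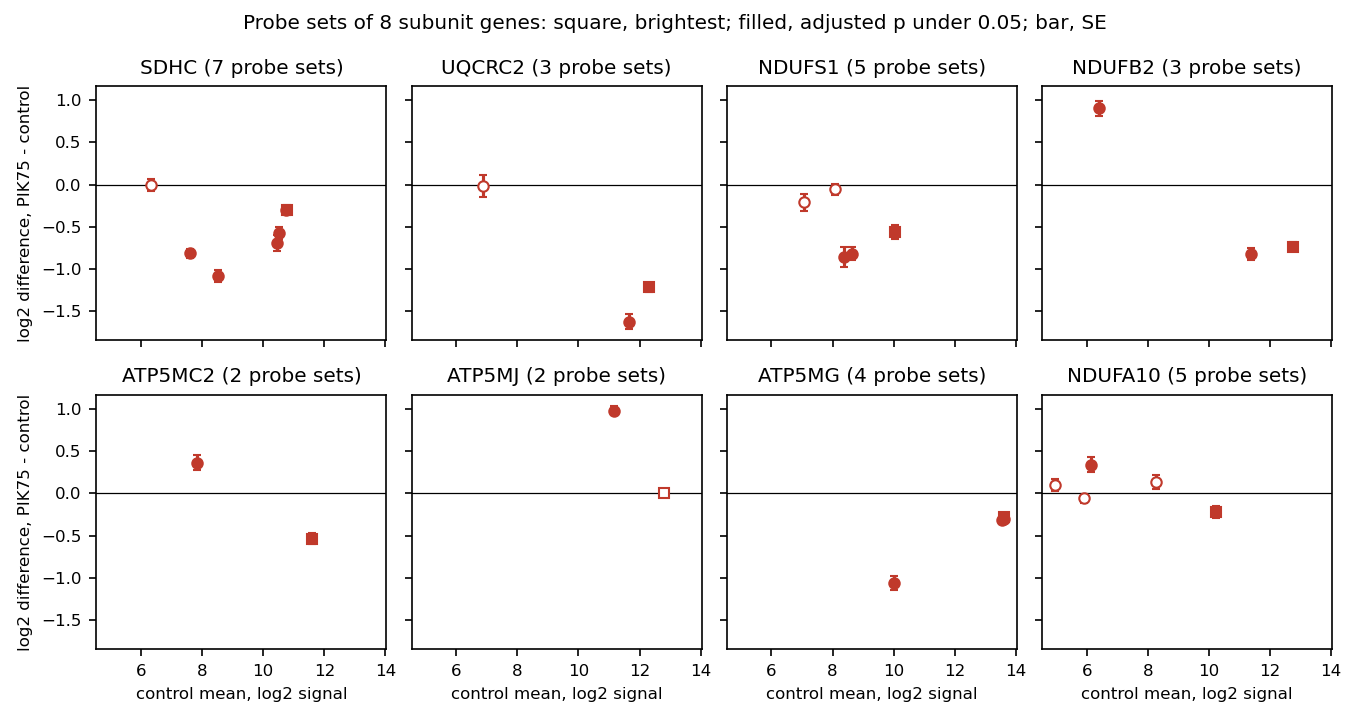
Log2 difference between PIK75 and control (bars, SE) against the control mean signal for each probe set of 8 subunit genes, with squares for the brightest and filled symbols at a limma adjusted p under 0.05. SDHC, UQCRC2, NDUFS1 and ATP5MG are lower on most of their bright probe sets, NDUFB2, ATP5MC2 and NDUFA10 have a dimmer probe set that is higher, and the second probe set of ATP5MJ is 0.98 higher.

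None of the 76 genes passed the test with TGX221 (limma, 0 lower and 0 higher, beside 0.399% and 0.809% of all genes, or 1.21% in either direction), and the smallest limma adjusted p was 0.14. With array weights, and with a trended and robust spread, the count was 0 as well. At an unadjusted p under 0.05 there were 7 genes, all higher. The values ran from -0.12 (NDUFS1) to 0.21 (ATP5MF), and the 95% intervals of all 76 lay between -0.29 and 0.37. Of the 76 values, 68 were above 0, beside 9752 of all 19775 genes, and the median was 0.05 beside -0.0017 over all genes. The genes share the same arrays, so this count of signs is a description only. The background median was -0.01 over the 3487 genes with a mean of at least 10 and 0.02 over the 602 with at least 12. By the hybridization spikes the median of the 76 genes was -0.02 and by the poly-A spikes 0.11.

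All 3 TGX221 arrays lay above all 3 control arrays in 20 of the 76 genes and below them in 1, beside 11.5% and 12.4% of all genes (23.9% in either direction). The 20 comprise 11 genes of complex I and 9 of complex V, and none of the other complexes. ATP5MF had the smallest p (log2 0.21, SE 0.0682, limma adjusted p = 0.14). NDUFS6, a zinc-binding subunit of the matrix arm, came next, with 12.71, 12.67 and 12.71 in control and 12.91, 12.79 and 12.84 with TGX221 (log2 0.15, SE 0.0524, limma adjusted p = 0.157). ATP5F1A was the gene with the lower arrays (-0.05). These genes were singled out after their values were seen.

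Set directly against TGX221, PIK75 lowered 36 of the 76 genes and raised 8 (limma; over all genes 22.3% were lower and 25.1% higher, 47.4% in all). The arrays did not overlap in 45 lower and 15 higher genes, beside 24.1% and 31% of all genes (55.1% in either direction). The median difference was -0.11, beside 0.06 over all genes and -0.12 over the genes with a mean of at least 10. Of those bright genes 46.8% were lower and 22.8% higher, beside 51.5% and 8.82% of the subunit genes in that range. Among genes with a mean of at least 12 the median was -0.06, beside -0.14 for the subunit genes there. In that range 38.7% were lower and 21.4% higher, beside 53.2% and 6.38% of the subunit genes. Of the 33 genes below control with PIK75, 32 were also below TGX221, the exception being NDUFA10 (-0.11, limma adjusted p = 0.246). Of the 11 that rose, 8 were also above TGX221. ATP5ME, ATP5MF and COX6A1 were not, with 0.03, 0.17 and 0.12. NDUFS6 (-0.25), ATP5F1E (-0.23), UQCRB (-0.14) and NDUFB4 (-0.12) were lower against TGX221 but not against control. Both comparisons use the same PIK75 arrays, so the counts are not independent. UQCRC2 was 2.33-fold lower than with TGX221, NDUFB8 1.89-fold, NDUFB2 1.71-fold and ATP5MC2 1.60-fold, and these 4 genes passed 1.5-fold. The 8 rises became 5 without TGX221 replicate 3, 17 under cyclic loess and 0 when centred on either kind of spikes.

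The subunits encoded by mitochondrial DNA were measured by 7 genes. With PIK75, 4 of the 7 rose and none fell, beside 35.2% higher and 25.2% lower over all genes. ND2, of complex I, read 13.77, 13.62 and 13.79 in control, 14.05, 14.10 and 14.04 with PIK75, and 13.63, 13.76 and 13.78 with TGX221. Its PIK75 arrays were apart from both other groups (log2 0.34, SE 0.0608, limma adjusted p = 0.0005). ND4 (0.21), ND6 (0.22) and COX1 (0.19), the catalytic subunit of complex IV, also rose. ATP6 (0.10), COX2 (0.06) and COX3 (-0.16) did not pass. These rises are smaller than the 0.352 by which the hybridization spikes were higher: centred on those, none of the 7 was called higher and 3 were called lower. Leaving out 1 array gave 2 to 4 rises, with 2 without control replicate 3 or PIK75 replicate 3.

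Assembly factors, which build the complexes but are not part of them, included larger single differences than the subunits. The counts below stand beside 25.2% lower and 35.2% higher over all genes with PIK75. For complex IV, 12 of 26 fell and 9 rose (6 to 10 without 1 array, and 3 by the poly-A spikes). HIGD1A, which binds the enzyme and is induced by low oxygen, was 2.76-fold lower (log2 -1.46), with 12.07, 12.03 and 12.20 in control and 10.67, 10.59 and 10.67 with PIK75. COX20, a chaperone of the subunit COX2, was 2.36-fold lower (log2 -1.24). For complex I, 8 of 17 fell and 2 rose, led by NDUFAF6 (-0.75) and NUBPL (-0.63), which helps place iron-sulfur clusters. For complex III, 3 of 6 fell (2 or 3 without 1 array, and 2 under cyclic loess) and 2 rose. LYRM7, which guides the iron-sulfur protein, was 2.16-fold lower (log2 -1.11), and UQCC1, needed to make cytochrome b, was 1.90-fold higher (log2 0.93). For complex II, SDHAF3 fell (-0.42) and SDHAF1 rose (0.15) among 4. For the ATP synthase, TMEM242 (-0.64) and FMC1 (-0.47) fell and 1 of the 5 factors rose, a call lost without control replicate 1 or 3 or PIK75 replicate 3. Centred on the hybridization spikes, at most 1 gene of each assembly list was called higher.

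Genes that make coenzyme Q, the carrier between the complexes, were mostly lower, with 8 of 13 falling and 1 rising and a median of -0.42. Over all genes 25.2% fell and 35.2% rose, and among genes of at least median brightness 41.2% fell and 30.9% rose. COQ2, which joins the ring to its tail, was 3.05-fold lower (log2 -1.61, 8.06 in control and 6.45 with PIK75), and COQ5, a methyltransferase of the ring, had -0.89. The count of falls was 8 or 9 without 1 array and 8 under cyclic loess. Other enzymes that reduce coenzyme Q were divided, 3 lower and 3 higher of 8, with GPD2 at -0.47 and SQOR at 0.44. Of 11 enzymes of the citric acid cycle, 3 fell and 4 rose, led by SUCLG1 (0.37) and IDH3A (-0.33), and by the hybridization spikes none rose. Of 3 further genes of the chain or its control, CYC1, CYCS and ATP5IF1, none passed.

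Among 14 genes that copy and transcribe mitochondrial DNA, 6 fell and 2 rose (8 and 4 under cyclic loess). This count and those of the next lists stand beside 25.2% lower and 35.2% higher over all genes. Without PIK75 replicate 5 the rises were 5, and without TGX221 replicate 3 or 5 they were 3. SSBP1, which coats single-stranded mitochondrial DNA, was 2.37-fold lower (log2 -1.24), with 12.55, 12.46 and 12.54 in control and 11.26, 11.23 and 11.32 with PIK75, and MTERF3 followed at -0.76. Among 9 regulators of mitochondrial gene expression, 3 fell and 2 rose. ESRRG, a nuclear receptor that activates oxidative genes, was 3.19-fold lower (log2 -1.67) and the coactivator PPARGC1B fell by 0.66. Of the factors whose motifs were searched, NRF1 rose (0.29, limma adjusted p = 0.00953, not when centred on the hybridization spikes), while GABPA (-0.23) and YY1 (0.08) did not pass. Of 8 carriers and porins, 5 fell and 2 rose (3 falls without control replicate 1 or 3 or PIK75 replicate 3, and 1 rise without any 1 control array or PIK75 replicate 1 or 3), led by VDAC3 (-0.65) and UCP2 (-0.58). None of the genes in these lists passed with TGX221. Markers of other cell types moved with PIK75 as well: 5 of 6 fibroblast and 2 of 4 endothelial genes were higher and 4 of 5 epithelial and 7 of 11 neuroendocrine genes lower (by the hybridization spikes none was higher), and their part in the values above was not tested. In bulk RNA, fewer cells with a transcript and less transcript per cell cannot be told apart.

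Genes that fell span more genome than those that rose, among the subunits and in general. The median span was 12.4 kb for the 33 subunit genes that fell, 5.49 kb for the 11 that rose and 8.51 kb for the rest, beside 44.1, 18.1 and 22.8 kb over all genes. Across the 76 genes the rank correlation of span with the PIK75 difference was -0.32, and across 19738 genes -0.219. These are across genes that share arrays and scaling, and are given as a description.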

How the data were processed

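RNA of H69 cells was measured on 9 Affymetrix arrays with 54675 probe sets, 3 arrays per group. The deposited values are log2 signals made by the authors with RMA, as named in the submitters' processing notes without a version. RMA makes the arrays alike in their distribution of values. Such values carry no detection p, and the number of arrays limits the precision. Probe sets with 1 gene symbol in the platform annotation were used (41091), and each of 19775 genes was given by its brightest one over all arrays. limma 3.58.1 in R 4.3.3 fitted the 3 groups together, with Benjamini-Hochberg adjustment over all genes. Intervals are 95%. With 3 arrays against 3, an exact permutation test cannot go below p = 0.1, so none is given.

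The genes and lists were chosen with earlier results of these data known. Values on every array are given, per complex, for the 2 largest called falls and the largest called rise, for paralog sets, and for genes whose probe sets were called in opposite directions. Per related list, up to 2 called genes are named. Further genes named were chosen after their values were seen. On simulated data with the spread of all genes and few changed genes, 47 of 50 changes of 1.5-fold, 27 of 50 of 1.25-fold and 1 of 50 of 1.1-fold were found, with 7 false calls among 19775 genes. Alternatives varied the scaling, the filter, the probe set rule, the spread, the pairing, the threshold and the arrays included; cyclic loess and both kinds of spikes rescaled the deposited values. Python 3.11.15 with pandas 2.3.3, numpy 2.4.6 and matplotlib 3.10.9 read promoters and drew figures. The array files name no genome build, so promoter coordinates are RefSeq's.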

Additional observations from a re-analysis of the deposited data

How the results depend on the processing

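For PIK75 against control (33 lower, 11 higher), centring on hybridization spikes gave 67 and 0, cyclic loess 21 and 22, and every probe set on its own 56 and 27. At 1.5-fold 3 and 0 passed, centring on poly-A spikes gave 4 higher and the mean of probe sets 18. Leaving out 1 array gave 27 to 33 lower and 9 to 11 higher. The median of the 76 genes (-0.03) was -0.1094 by poly-A spikes, -0.3804 by hybridization spikes and -0.0743 without genes below median brightness, and -0.0518 to -0.0132 without 1 array. By poly-A spikes, hybridization spikes and cyclic loess, in that order, the median of complex I was -0.2212, -0.4922 and -0.0392, of complex II -0.0805, -0.3515 and 0.1269, of complex III -0.1207, -0.3916 and 0.0456, of complex IV -0.0436, -0.3145 and 0.0786, and of complex V -0.1971, -0.4681 and -0.0312. With the mean of probe sets it was -0.0947 for complex I, 0.1523 for II, -0.1299 for III and -0.0258 for V, and with every probe set -0.0312 for I, -0.2981 for II and -0.0145 for V. Complex IV was at -0.0121 without genes below median brightness. Without 1 array the medians were -0.1741 to -0.1247 (complex I), -0.0171 to 0.0314 (II), -0.0558 to -0.0275 (III), 0.0232 to 0.0494 (IV) and -0.1567 to -0.071 (V).

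The TGX221 median (0.05) was 0.1145 by poly-A and -0.0195 by hybridization spikes, and 0.0346 to 0.0597 without 1 array, and no setting called a gene. For PIK75 against TGX221 (36 lower, 8 higher), hybridization spikes gave 67 and 0, every probe set 58 and 17, and 1.5-fold 4 and 0. Higher genes were 0 by poly-A spikes, 17 by cyclic loess, 13 by the mean of probe sets, 14 with a trended and robust spread and 4 at an adjusted p under 0.01. Without 1 array there were 33 to 35 lower and 5 to 8 higher. The median (-0.11) was -0.2584, -0.3954 and -0.0348 by poly-A spikes, hybridization spikes and cyclic loess, -0.1394 without genes below median brightness, -0.0738 with the mean of probe sets and -0.0733 with every probe set, and -0.1349 to -0.0799 without 1 array.

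Among the genes named by rule with values on every array, the sign turned by hybridization spikes for SDHA (-0.1629), UQCR11 (-0.1673), COX4I1 (-0.2421), COX4I2 (-0.3283), COX6A1 (-0.1717), COX6A2 (-0.3145), COX6B2 (-0.2975), COX7A2 (-0.2973), COX7A2L (-0.1581) and COX7B2 (-0.3362), since that scaling lowers each PIK75 difference by 0.352. Other rises below that size, such as NDUFB10, NDUFS3, ATP5ME and COX8C, turn likewise. With the mean of probe sets it turned for NDUFA10 (0.0586). Over 22 settings that leave out the 1.5-fold threshold and the fit of every probe set, 19 of 33 falls and 0 of 11 rises kept their call wherever they were tested. The hybridization spikes lower every PIK75 difference and alone leave 0 of the 11 rises, so the 2 counts cannot be compared. NDUFV1 and ATP5MF kept their call in 21 of 22 settings, COX7A1 in 20 of 21 and COX8C in 19 of 20. The other rises kept it in 14 (ATP5ME) to 20 of 22. For other changes the cause was not tested.

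With the replicate number as a block, 30 genes were lower and 11 higher with PIK75 against control, 32 and 6 against TGX221, and COX7B was among the calls lost. No label says whether arrays with the same number belong together. Same-numbered control and PIK75 arrays had deviations that correlated at -0.134, 0.122 and -0.046. For PIK75 and TGX221 the values were 0.065 and 0.235, and for control and TGX221 0.082 and -0.023. Arrays with different numbers ran from -0.292 to 0.256, so these correlations cannot decide whether the numbers pair the arrays.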
